A study of Mus musculus with 12 samples.

Results

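The translation initiation factors measured here are the 46 genes, of 15391 in the count table, whose mouse symbol begins with Eif, leaving out the Eif4ebp inhibitors and the Eif2ak kinases. By symbol prefix they comprise 5 genes of the Eif1 group, 6 of Eif2, 5 of Eif2b, 13 of Eif3, 12 of Eif4, 4 of Eif5 and Eif6 alone. All 46 passed the filter on low counts, which kept 8773 genes. The RNA came from cultured adult mouse dorsal root ganglion neurons of genotype RPL22HA+/+;Advillin-Cre+, whose donors had a preconditioning sciatic nerve injury, in all 4 groups. Advillin-Cre switches on an HA-tagged ribosomal protein Rpl22 in sensory neurons, so HA immunoprecipitation recovers neuronal ribosomes together with their mRNA. The cultures received either a control adeno-associated virus or one with a short hairpin RNA against Larp1 (AAV-shLarp1), and the HA immunoprecipitate (IP) and the input RNA were sequenced for each. The labels call the control virus AAV-Control for the IP and AAV-shControl for the input, and both were taken as the control. They also describe the source as cultured neurons while the extraction text speaks of fresh ganglia. The sources used here give no age or sex of the mice and no number of animals or cultures per group.

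Initiation begins when Eif2, carrying the initiator tRNA, joins the small ribosomal subunit together with Eif1, Eif1a, Eif3 and Eif5. Eif4e binds the mRNA cap, Eif4g is the scaffold that ties Eif4e to the helicase Eif4a and to Eif3, and Eif4b and Eif4h assist the helicase. Eif5 makes Eif2 hydrolyse its GTP at the start codon, Eif5b joins the large subunit, and Eif2b reloads Eif2 with GTP, the step that the integrated stress response blocks. Larp1 binds the cap and the terminal oligopyrimidine (TOP) tract, a C followed by a run of pyrimidines at the very start of an mRNA, and competes there with Eif4e. TOP mRNAs encode mostly ribosomal proteins and elongation factors, and among the initiation factors Eif3e, Eif3f, Eif3h and Eif4b are known for such a tract. In injured sensory axons, local translation is known as part of the growth response.

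The start of the mRNA is where Larp1 binds, so the annotated starts of 7 of these genes are shown, from RefSeq promoters of build GRCm38.p6, which differs from the build of the counts. Each window runs from 10 bases before to 20 bases after the annotated start, and capitals mark the longest run of a C and at least 4 more pyrimidines that starts within 5 bases of it. Eif3f, Eif2s3x, Eif3l, Eif2b5 and Eif4g1 are shown for having such a run, Eif4b as a known TOP mRNA whose annotated start has none, and Eif1 as the member with the most counts.
Eif3f (chr7:108934405-108934434, plus strand): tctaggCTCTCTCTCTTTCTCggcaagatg
Eif2s3x (chrX:94212632-94212661, minus strand): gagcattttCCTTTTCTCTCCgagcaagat
Eif3l (chr15:79075213-79075242, plus strand): gagttcttcttccgCTCTCTCCCacgggct
Eif2b5 (chr16:20498807-20498836, plus strand): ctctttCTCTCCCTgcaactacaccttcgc
Eif4g1 (chr16:20672717-20672746, plus strand): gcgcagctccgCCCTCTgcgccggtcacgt
Eif4b (chr15:102073763-102073792, plus strand): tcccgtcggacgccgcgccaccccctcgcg
Eif1 (chr11:100319939-100319968, plus strand): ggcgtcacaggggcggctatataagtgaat
The run in Eif3f was the longest of these, at 15 bases. Such a run was present on the gene's strand in 10 of the 38 members with a promoter entry (26.3%), against 21.2% of the 27025 genes in the promoter table and 24.0% of the 6274 kept genes with an entry. The 10 were Eif1ad, Eif2b2, Eif2b5, Eif2s3x, Eif2s3y, Eif3b, Eif3f, Eif3l, Eif4enif1 and Eif4g1. A match describes the letters at an annotated start and does not show where transcription began in these neurons. Eif3e and Eif3h had no promoter entry.

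Total counts per column were 3126591 to 3177552 in the IP and 564095 to 760140 in input. The 3 columns of a group differed by about sampling noise: their totals varied less than counting error, and 6.98% to 7.62% of genes, by group, had a chi-square p under 0.05 between columns. Among the initiation factors with at least 30 counts in a group this held for 4 of 46 in the control IP (Eif1b, Eif2a, Eif2s1 and Eif3i), 0 of 46 in the shLarp1 IP, 0 of 17 in control input and 3 of 15 in shLarp1 input (Eif3h, Eif3k and Eif4a2). The labels tie no column to a culture or animal of its own, so the columns were summed and each group counted as 1 sample. No difference between the viruses therefore has a replicate check, and no p-value is given. Each value is a log2 ratio of summed counts after TMM scaling, with a 95% Clopper-Pearson interval that covers counting error only, and PCR copies without molecular identifiers are not independent molecules. Calls of higher or lower require an interval that lies entirely beyond 1.5-fold. Larp1, the target, had 147, 141 and 154 counts in the control IP and 55, 49 and 45 in the shLarp1 IP (log2 -1.72, -2.0 to -1.45). Of the neuronal markers Tubb3, Uchl1, Prph, Nefl, Snap25, Avil, Rbfox3 and Isl1, all 8 were present, and 6 of 8 were called higher in the IP than in input with either virus.

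In the IP, none of the 46 initiation factors was called higher or lower with shLarp1, where 5.12% of all 8766 genes evaluated were called. The interval lay wholly within 1.5-fold for 35 of the 46, against 46.2% of all genes, and these mRNAs had more counts than most: a median of 445 in the control IP, against 147 for all kept genes. The log2 ratios of the 46 ran from -0.39 to 0.37 with a median of -0.05, with quartiles at -0.16 and 0.04. Over all genes the median was -0.08 and the quartiles were -0.38 and 0.14. Summed over the 46 genes, the IP held 50212 counts with the control virus and 54946 with shLarp1, a log2 ratio of -0.02 (-0.04 to -0.00). Summed by prefix group, the log2 ratio was -0.01 for Eif1, 0.01 for Eif2, 0.03 for Eif2b, -0.06 for Eif3, -0.02 for Eif4, -0.02 for Eif5 and -0.15 for Eif6. A prefix group is not always a single factor: Eif5 pools Eif5, Eif5a, Eif5a2 and Eif5b. A sum can also rest mostly on a single gene, as on Eif5a in Eif5. Eif2s2 likewise held 3187 of the 3965 Eif2 counts in the control IP.

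**Figure D1:**
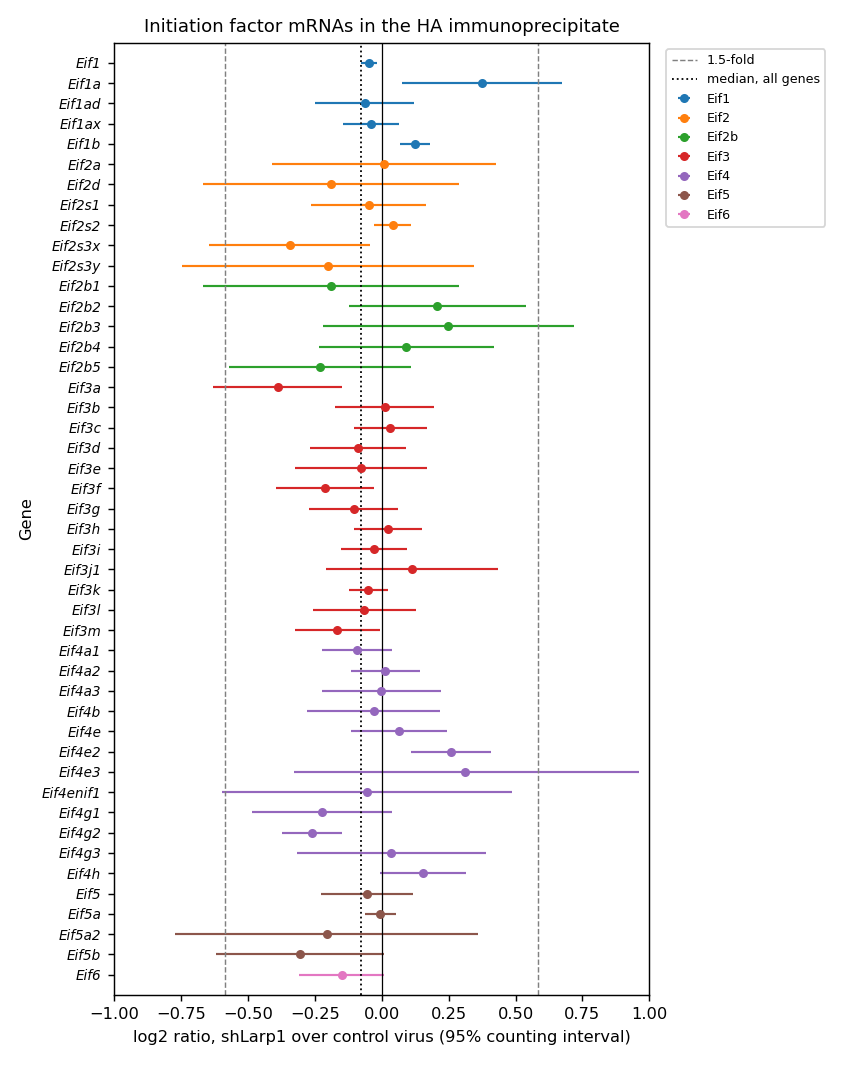
Log2 ratio of shLarp1 over control virus in the HA immunoprecipitate for each of the 46 initiation factor genes, colored by symbol prefix. Points are ratios of summed counts, bars are 95% counting intervals, dashed lines mark 1.5-fold and the dotted line the median of all genes (-0.08). No bar lies wholly beyond a dashed line, and the points run from -0.39 to 0.37.

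The zero of this scale depends on how the groups are scaled. Upper-quartile factors and total counts each shifted the all-gene IP median by 0.13, which put the median of the 46 at 0.08, and leaving out any 1 input column put it at 0.03 to 0.04. The difference of a gene from the median of all genes does not depend on that choice and is given below for some genes. An interval that excludes that median does not make a gene unusual, since all genes had IP quartiles of -0.38 and 0.14. Eif1b (0.12) and Eif4g2 (-0.26) lay between those quartiles, Eif3a (-0.39) at the lower one and Eif4e2 (0.26) above the upper one. Where scaled columns are said not to overlap, this restates the ratio of sums and is no replicate check. In the IP such non-overlap also held for Eif1, Eif1a, Eif2b2, Eif2b5, Eif3f, Eif5b and Eif6, and in input for others such as Eif1 and Eif3m. Its share over all genes was not computed, so non-overlap does not set a gene apart from other genes.

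The Eif1 group, named for a factor that scans for the start codon, held the most counts of any prefix group, 24076 of 50212 in the control IP. Eif1 had 5880, 5747 and 5852 counts in the control IP and 6250, 6326 and 6210 in the shLarp1 IP, a log2 ratio of -0.05 (-0.08 to -0.02). That lay 0.03 above the median of all genes. Its paralog Eif1b had 1442, 1591 and 1507 counts against 1841, 1817 and 1839, a log2 ratio of 0.12 (0.07 to 0.18), which was 0.20 above the median of all genes (0.14 to 0.26). After scaling, all 3 shLarp1 columns of Eif1b lay above all 3 control columns, which restates that ratio. Eif1b therefore made up 20.6% of the Eif1 and Eif1b counts in the control IP and 22.6% in the shLarp1 IP, a log2 change of 0.17 (0.11 to 0.24) in their ratio, free of scaling. In input the share was 10.2% with either virus (log2 change 0.01, -0.23 to 0.25). Eif1a, which works beside Eif1 on the small subunit, had 56, 50 and 53 counts against 71, 81 and 77, a log2 ratio of 0.37 (0.08 to 0.68). Its X-linked paralog Eif1ax had 1423 counts in all against 1538 (-0.04, -0.15 to 0.06). Reads of such close paralogs may have been split between them in either direction.

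Eif2, the tRNA carrier, has an alpha, a beta and a gamma subunit. Eif2s1, the alpha subunit that the stress kinases phosphorylate, had 92, 132 and 123 counts in the control IP and 126, 128 and 119 in the shLarp1 IP (log2 -0.05, -0.26 to 0.17). The columns overlapped, and the control columns spread more widely than the shLarp1 columns. Eif2s2, the beta subunit, had 1096, 1010 and 1081 counts against 1190, 1244 and 1210 (0.04, -0.03 to 0.11). Eif2s3x, the gamma subunit encoded on the X chromosome, had 62, 67 and 72 counts against 46, 71 and 59, a log2 ratio of -0.34 (-0.64 to -0.04). The scaled columns of Eif2s3x overlapped only between the lowest control and the highest shLarp1 column. Its Y-linked paralog Eif2s3y had 60 counts against 58 (-0.20, -0.75 to 0.34).

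The exchange factor Eif2b gave no common direction, with log2 ratios from -0.23 to 0.25 in its 5 subunits and a median of 0.09. Eif2b5, the catalytic subunit, had 45, 52 and 54 counts in the control IP and 50, 47 and 46 in the shLarp1 IP (-0.23, -0.57 to 0.11). Eif2b2, of the regulatory part, had 44, 47 and 47 counts against 61, 62 and 54 (0.21, -0.12 to 0.54), and Eif2b4, of the same part, had 44, 58 and 45 against 69, 49 and 56 (0.09, -0.23 to 0.42). Counts of this size leave intervals wide enough to hold 0.

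Eif3, the large scaffold on the small subunit, was measured in 13 genes with a median log2 ratio of -0.06 and a range of -0.39 to 0.11. Eif3a, the subunit around which the complex is built, stood lowest: it had 98, 104 and 111 counts in the control IP and 90, 90 and 86 in the shLarp1 IP, a log2 ratio of -0.39 (-0.63 to -0.15). It was 0.31 below the median of all genes (-0.31, -0.55 to -0.07), and its scaled columns did not overlap between the viruses. The 5 subunits given next had higher log2 ratios. Eif3c had 285, 261 and 281 counts against 311, 318 and 311 (0.03, -0.10 to 0.17), and Eif3b had 148, 152 and 158 against 152, 173 and 188 (0.01, -0.17 to 0.20). Eif3i, which binds to Eif3b, had 317, 388 and 323 counts against 383, 343 and 395 (-0.03, -0.15 to 0.10). Eif3g, their RNA-binding partner, had 204, 187 and 196 against 191, 218 and 198 (-0.10, -0.27 to 0.06). Eif3d, which can itself bind the cap of some mRNAs, had 163, 167 and 174 against 173, 191 and 163 (-0.09, -0.27 to 0.09). Thus 5 of these 6 subunits lay between -0.10 and 0.03, and the value of Eif3a lay below them. Only the interval of Eif3c lay wholly above that of Eif3a, and those of Eif3b, Eif3i, Eif3g and Eif3d overlapped it. Eif3f (-0.21, -0.39 to -0.03) and Eif3m (-0.17, -0.32 to -0.01), given below, also had intervals below 0, which overlapped that of Eif3a.

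The 4 initiation factors listed above as TOP mRNAs, a list from background knowledge that may not be complete, had no common value in the IP. None was called. Eif3e had 80, 96 and 91 counts with the control virus and 87, 101 and 93 with shLarp1 (log2 -0.08, -0.33 to 0.17). Eif3f, whose start carries the long run shown above, had 179, 154 and 169 against 168, 151 and 163 (-0.21, -0.39 to -0.03). Eif3h had 306, 313 and 320 against 360, 364 and 337 (0.02, -0.10 to 0.15). Eif4b, an RNA-binding helper of the helicase, had 84, 81 and 95 against 92, 90 and 101 (-0.03, -0.28 to 0.22). Their median of -0.05 equals that of all 46. The 10 members with a pyrimidine run at an annotated start had a median of -0.13 (from -0.34 to 0.21), the 28 without one -0.04 and the 8 without a promoter entry -0.00, beside -0.08 for all genes. These are descriptions of small sets, and the ranges overlap almost wholly. Eif3m, a smaller subunit of the complex, had 205, 228 and 230 counts against 212, 212 and 233 (-0.17, -0.32 to -0.01).

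Within Eif4, the cap-binding and scaffold genes differed from one another. Eif4e, the cap-binding protein with which Larp1 competes, had 167, 152 and 155 counts in the control IP and 185, 183 and 183 in the shLarp1 IP (log2 0.06, -0.11 to 0.25). Eif4e2, a cap-binding homolog known for repressing translation, had 234, 200 and 215 counts against 294, 295 and 274, a log2 ratio of 0.26 (0.11 to 0.41). It lay 0.34 above the median of all genes (0.19 to 0.49), and all 3 scaled shLarp1 columns were above all 3 control columns. Its share of the Eif4e and Eif4e2 counts was 57.8% and 61.0%, a log2 change of 0.19 (-0.04 to 0.42) in the ratio, which did not exclude 0. Eif4g2 (DAP5), a scaffold that lacks the Eif4e-binding site, had 449, 432 and 462 counts against 386, 420 and 439, a log2 ratio of -0.26 (-0.37 to -0.15). It lay below the median of all genes by a log2 difference of -0.18 (-0.30 to -0.07), and its scaled columns did not overlap either.

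The main scaffold Eif4g1 had 81, 84 and 87 counts in the control IP and 95, 70 and 75 in the shLarp1 IP (-0.22, -0.48 to 0.04), with overlapping columns. The helicases lay close to the center: Eif4a1 had 322, 320 and 306 counts against 328, 348 and 313 (-0.09, -0.22 to 0.04). Eif4a2, its close paralog, had 305, 286 and 326 against 339, 347 and 343 (0.01, -0.12 to 0.14). Eif4a2 made up 49.2% of the counts of the pair with the control virus and 51.0% with shLarp1 (log2 change 0.11, -0.08 to 0.29). Eif4h, the other helicase helper, had 195, 200 and 179 counts against 223, 242 and 245 (0.15, -0.01 to 0.32).

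Of the late-acting factors, Eif5a lay near the center in the IP and Eif5b toward the low end. Eif5a, which relieves stalled ribosomes and is modified by hypusine, had 1527, 1547 and 1509 counts with the control virus and 1722, 1659 and 1690 with shLarp1, a log2 ratio of -0.01 (-0.06 to 0.05). Eif5 had 178, 178 and 186 against 210, 196 and 174 (-0.05, -0.23 to 0.12). Eif5b, the subunit-joining GTPase, had 67, 58 and 56 against 57, 54 and 52 (-0.30, -0.62 to 0.01). Eif6, which keeps the large subunit from joining too early, had 220, 218 and 224 against 230, 216 and 217 (-0.15, -0.31 to 0.01).

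**Figure D2:**
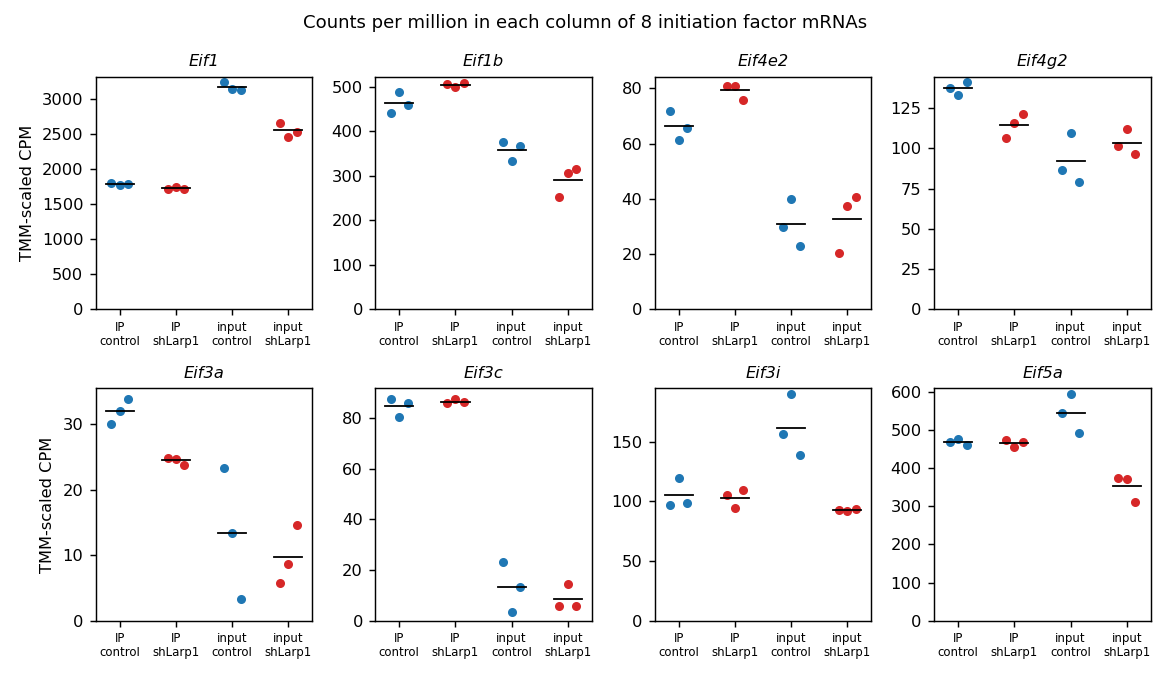
Depth-scaled counts (TMM-scaled CPM) in each of the 12 columns for 8 initiation factor genes, with group means as lines, control virus in blue and shLarp1 in red. In the IP the columns of Eif1b and Eif4e2 were higher with shLarp1 and those of Eif4g2, Eif3a and Eif1 lower, without overlap. The input columns of Eif5a, Eif3i, Eif1 and Eif1b were lower with shLarp1, also without overlap. Columns of a group are not independent replicates, and each axis starts at 0.

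In input none of the 46 was called, where 1.19% of 7588 genes were. The depth was far lower: the median member had 16 counts over the control input and 19.5 over the shLarp1 input, and 25 and 23 members had fewer than 20. Only 4 of the 46 had an interval wholly within 1.5-fold, against 9.78% of all genes. For the other members a difference of 1.5-fold was not detectable or not excluded at this depth. The median log2 ratio of the 46 was -0.20, against -0.14 for all genes, but it was 0.01 with DESeq2's size factors, -0.43 with total counts and 0.14 without shLarp1 input column 2. The summed counts of the 46 went from 5405 to 5051, a log2 ratio of -0.30 (-0.35 to -0.24).

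The members with enough input counts were not alike. Eif5a had 164, 179 and 149 counts in control input and 129, 130 and 107 in shLarp1 input, a log2 ratio of -0.62 (-0.82 to -0.43). Eif3i had 47, 57 and 42 against 32, 32 and 32 (-0.80, -1.19 to -0.42). Relative to the median of all genes these were -0.48 (-0.68 to -0.28) for Eif5a and -0.66 (-1.05 to -0.28) for Eif3i, and the scaled columns of neither gene overlapped between viruses. Eif3m had 28, 21 and 13 counts against 13, 13 and 13 (-0.87, -1.48 to -0.27), and Eif2s1 had 14, 10 and 14 against 13, 4 and 6 (-0.92, -1.74 to -0.14). Eif1 had 973, 946 and 947 against 920, 859 and 869 (-0.31, -0.39 to -0.23), and Eif1b had 113, 100 and 111 against 87, 107 and 108 (-0.30, -0.53 to -0.07). These 6 had intervals below 0 and none wholly beyond 1.5-fold. Eif4a3 (-0.76, -1.53 to -0.02) and Eif3h, given below, also had intervals below 0. With under 20 counts in each input group, so did Eif2b1 (-1.90, -3.97 to -0.20) and Eif2b2 (-1.39, -2.91 to -0.03). The interval of Eif2b3, equally low in counts, lay above 0 (1.80, 0.17 to 3.84).

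Other members had input values above the median of all genes. Eif2s2 had 69, 77 and 72 counts in control input and 104, 101 and 78 in shLarp1 input (log2 0.18, -0.08 to 0.44), and Eif4g2 had 26, 33 and 24 against 35, 39 and 33 (0.17, -0.26 to 0.60). Eif4e had 7, 5 and 8 against 6, 8 and 11 (0.12, -0.78 to 1.05). Eif3k, a small peripheral subunit of Eif3, had 395 counts in all against 432 (-0.07, -0.27 to 0.13). Eif3h, below that median, had 38, 32 and 43 against 48, 19 and 30 (-0.42, -0.82 to -0.01), with wide spread among its shLarp1 columns. The Eif3 subunits ranged from -0.87 to 0.29 in input, the upper end being Eif3j1 on 5 and 7 counts (-1.58 to 2.29). Among those with at least 20 counts in each input group, Eif3k (-0.07) was highest. The summed level of the 8 neuronal markers also differed in input, at 1294 to 1323 depth-scaled counts (CPM of column totals) with the control virus and 578 to 588 with shLarp1, while in the IP it was 6155 to 6222 and 7102 to 7183. In input that sum was mostly Uchl1, a neuronal ubiquitin hydrolase, with 1772 counts against 935, the 1 of the 8 called lower. The median input log2 ratio of the 8 was -0.15, close to that of all genes. In the IP Uchl1 had 30802 of 58078 marker counts with the control virus and 40347 of 67979 with shLarp1. The median TMM-scaled IP log2 ratio of the 8 was -0.04. Markers of Schwann cells and satellite glia summed to 340 to 399 and 299 to 351 in input, those of fibroblasts to 39.0 to 46.1 and 25.0 to 42.1, those of macrophages to 58.4 to 79.8 and 31.6 to 40.8, and those of endothelial and mural cells to 7.09 to 14.2 and 0 to 5.26. By column totals the all-gene median input log2 ratio was itself -0.38, against -0.14 after TMM scaling, so lower sums alone show no loss. The glial markers had 626 and 745 input counts, and their median TMM-scaled log2 ratio was -0.09. That median was -0.16 for fibroblast and -0.62 for macrophage markers. Of the defining markers, 1 of 6 for fibroblasts was at 0 in each input and 2 of 4 for endothelial and mural cells in shLarp1 input. The part of these in the input values was not tested, and fewer cells of a type and less RNA per cell cannot be told apart.

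**Figure D3:**
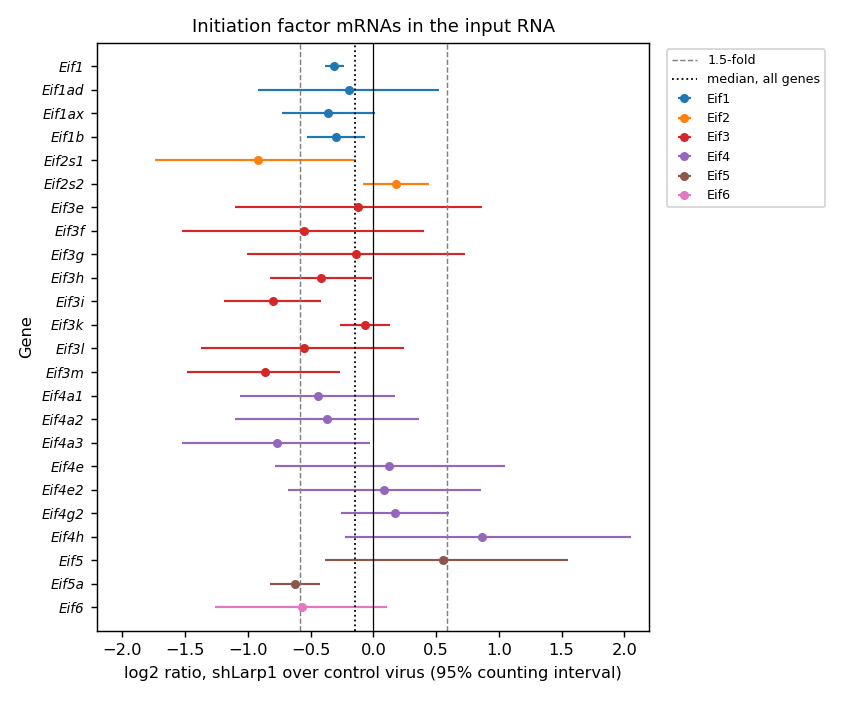
Log2 ratio of shLarp1 over control virus in input RNA for the 24 initiation factor genes with at least 20 counts in an input group. Points are ratios of summed counts, bars are 95% counting intervals, dashed lines mark 1.5-fold and the dotted line the median of all genes (-0.14). Eif3i (-0.80) and Eif5a (-0.62) have intervals below 0 that still reach inside 1.5-fold, and most other bars are wide.

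The difference between the IP ratio and the input ratio asks whether shLarp1 moved an mRNA differently in the 2 fractions. None of the 46 was called, where 6.96% of 7581 genes were. The median difference was 0.19, against 0.07 for all genes, but it was -0.01 with DESeq2's size factors, 0.56 with total counts and -0.09 without shLarp1 input column 2. Eif3i had the value 0.77 (0.38 to 1.16), Eif5a 0.62 (0.41 to 0.82), Eif1b 0.42 (0.19 to 0.66) and Eif1 0.26 (0.18 to 0.35). In Eif5a and Eif3i the IP ratio was near 0, so the difference rests on the input counts given above. Intervals above 0 were also those of Eif2b2 (1.54, 0.25 to 2.83), Eif2s1 (0.86, 0.09 to 1.63) and Eif4a3 (0.75, 0.02 to 1.49). So were those of Eif3m (0.69, 0.10 to 1.29) and Eif3h (0.44, 0.03 to 0.85). The values of 16 members lay below 0. Among them the intervals of Eif4g2 (-0.43, -0.86 to -0.00) and Eif5b (-1.50, on 5 and 14 input counts) excluded 0.

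Set against input, the initiation factor mRNAs spanned a wide range in the IP, which holds RNA of the tagged neurons and any background. With the control virus 10 of the 46 were called higher in the IP, where 23.0% of all genes were, and 1 was called lower, where 12.5% were. With shLarp1 12 were called higher (25.9% of all genes) and 0 lower (13.1%). The median log2 ratio of IP to input was 0.92 for the members and 0.38 for all genes with the control virus, and 0.95 and 0.64 with shLarp1. The all-gene medians, here and below, are over the 7393 and 7416 genes with counts in both fractions. They leave out genes with no input count, at the top of the scale, while all 46 members are included. The gap is thus overstated, by an amount that was not computed. The shares of members called higher were near the background. None of the 46 was among the 752 genes whose mean ratio lay below -2 on the log2 scale, and none among the 1185 genes with no input count.

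Eif3c gave the highest ratio among members with more than a few input counts. It had 7, 1 and 4 counts in control input beside 827 in the control IP (log2 2.67, 1.86 to 3.63), and 2, 5 and 2 beside 940 with shLarp1 (3.32, 2.38 to 4.45). Eif3k, of the same complex, had 121, 142 and 132 input counts beside 2936 in the control IP (-0.54, -0.69 to -0.39), and 119, 159 and 154 beside 3153 with shLarp1 (-0.52, -0.67 to -0.37). The IP-to-input ratio of Eif3c was thus 9.27-fold that of Eif3k with the control virus (log2 difference 3.21, 2.38 to 4.05) and 14.3-fold with shLarp1 (3.84, 2.88 to 4.80), whatever the scaling of the groups. Eif3i (-0.62 and 0.15) and Eif3h (-0.38 and 0.06) lay nearer to Eif3k. Eif3b (1.82 and 1.91), Eif3d (1.54 and 1.40) and Eif3g (1.18 and 1.21) were called higher with both viruses, on 12, 16 and 24 control input counts. Per column these were 3, 5 and 4 for Eif3b, 7, 6 and 3 for Eif3d, and 7, 6 and 11 for Eif3g. Eif3f was called with shLarp1 only (1.01, 0.41 to 1.68 with the control virus and 1.35, 0.68 to 2.12 with shLarp1), and its intervals overlap widely. Subunits that work as one complex were thus not at one ratio, and the low input counts of several leave wide intervals.

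Eif1 was the one member called lower in the control IP than in input, with a log2 ratio of -0.83 (-0.88 to -0.77), and it had -0.56 (-0.62 to -0.50) with shLarp1. Relative to the median of all genes it stood at -1.20 and -1.21. This call depends on the scaling, since total counts put the control ratio at 0.15. The paralog Eif1b had 0.37 (0.21 to 0.54) and 0.80 (0.63 to 0.97), a ratio 2.30-fold that of Eif1 with the control virus and 2.57-fold with shLarp1, again free of scaling. Eif1 made up 34.8% of all initiation factor counts in the control IP and 53.0% in the control input, and 34.2% and 52.4% with shLarp1. Eif1a, at 1, 2 and 2 control input counts and 0, 4 and 2 with shLarp1, had 1.55 (0.30 to 3.20) and 1.86 (0.72 to 3.32).

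Among the Eif4 helicase genes Eif4a2 lay above Eif4a3, while the intervals of Eif4a2 and Eif4a1 overlapped with either virus. Eif4a2, the form known to be abundant in neurons, had 12, 13 and 11 input counts with the control virus and 18, 9 and 5 with shLarp1, and log2 ratios of IP to input of 1.23 (0.75 to 1.76) and 1.62 (1.11 to 2.17). Eif4a1, the general form, had 23, 14 and 14 against 14, 11 and 18, with ratios of 0.78 (0.37 to 1.22) and 1.13 (0.69 to 1.61). Eif4a3, a nuclear helicase of the exon junction complex despite its name, had -0.44 (-0.92 to 0.07) and 0.32 (-0.24 to 0.94). The ratio of Eif4a2 was 3.19-fold that of Eif4a3 with the control virus (log2 difference 1.67, 1.00 to 2.35) and 2.45-fold with shLarp1 (1.29, 0.54 to 2.05).

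The other Eif4 genes that were called lay on the same side. Eif4h was called with both viruses (2.27, 1.42 to 3.28 and 1.56, 0.96 to 2.22), on 1, 6 and 4 and then 7, 5 and 11 input counts. Eif4e2 (1.10 and 1.27) was called with shLarp1, on input counts of 7, 13 and 14, and Eif4e (1.13 and 1.07) with neither. Eif4b was also called with shLarp1 (0.89, 0.09 to 1.81 and 1.95, 0.88 to 3.27), on input counts of 7, 4 and 2 and then 1, 2 and 4. Whether the ratios of Eif4b, Eif4e2 or Eif3f differ between the viruses is covered by the difference between fractions above, in which none was called.

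The remaining called genes rest on few input reads. Eif2s3x had 2, 0 and 0 input counts with the control virus and a ratio of 3.22 (1.34 to 6.27), and 2, 2 and 3 with shLarp1 and a ratio of 1.26 (0.19 to 2.60). Eif2b4 had 0, 2 and 1 counts and 2.18 (0.60 to 4.47), and Eif2b5 had 2, 1 and 0 counts and 2.22 (0.64 to 4.51). Eif5 had 4, 8 and 4 counts and 1.65 (0.93 to 2.46) with the control virus, and 10, 9 and 8 counts and 1.03 (0.48 to 1.65) with shLarp1. Eif2s2, with many input counts, had 0.43 (0.24 to 0.64) and 0.30 (0.12 to 0.48). Relative to the median of all genes these were 0.06 (-0.14 to 0.26) and -0.35 (-0.52 to -0.17).

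**Figure D4:**
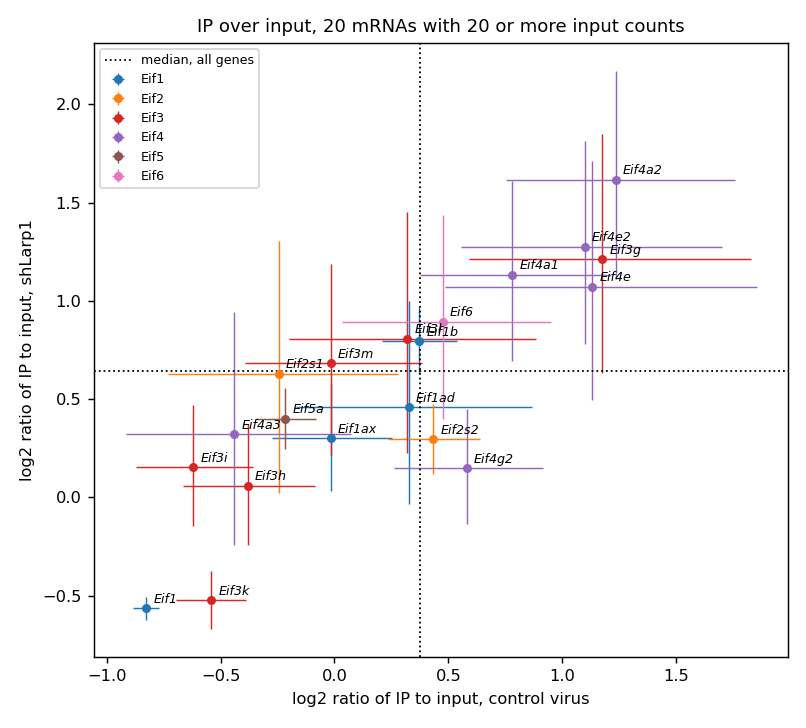
Log2 ratio of IP to input with the control virus (x axis) and with shLarp1 (y axis) for the 20 initiation factor genes with at least 20 input counts under each virus. Bars are 95% counting intervals and dotted lines the medians of all genes. Eif1 lies lowest and Eif4a2 highest on both axes.

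Across those 20 genes the 2 ratios had a Pearson correlation of 0.852 and a Spearman correlation of 0.791. This is a description: the genes are not independent, and both ratios share transcript properties and library preparation. The ratios ran from -0.83 to 1.23 with the control virus and from -0.56 to 1.62 with shLarp1. Levels were not compared between genes, since counts were not set per transcript length.

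Of 33 other genes of the initiation pathway, 30 had a row and 24 passed the filter. In the IP 2 of the 24 were called lower with shLarp1, where 4.40% of all genes were, and 0 higher, where 0.719% were, and their median log2 ratio was -0.06. The 2 were Larp1 itself and Pabpc1, the poly(A)-binding protein that binds Eif4g and is a TOP mRNA, with 308, 328 and 313 counts against 158, 149 and 147 (-1.22, -1.38 to -1.05). Atf4, the transcription factor whose translation rises when Eif2 is inhibited, had 403, 400 and 360 counts against 459, 464 and 464 (0.10, -0.01 to 0.22), and Eif4ebp1, the inhibitor of Eif4e, had 149, 149 and 152 against 163, 175 and 195 (0.09, -0.09 to 0.28). In input 0 of the 24 were called. With the control virus 3 of the 24 were called higher in the IP than in input (23.0% of all genes) and 3 lower (12.5%), the lower ones being Eif4ebp1 (-1.34), the ribosome-recycling factor Abce1 (-2.52) and Gigyf2, a partner of Eif4e2 (-4.49).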

How the data were processed

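Nanopore cDNA-PCR libraries without molecular identifiers were sequenced, per the labels' protocols. The deposited table holds counts per gene, in whole numbers, not scaled to depth. Per the submitters' processing notes, the tools were minimap2 and Salmon and the builds were mm39 and GRCm39; the sources used here do not give versions, annotation, filters or strand use. Symbols were matched by identifier (13711 of 15391 genes, 1680 without one). None of 10 pseudogenes named after initiation factors has a row in the table as used here, and Eif3j2 and Eif4e1b were not analysed here.

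Genes were filtered with filterByExpr (minimum count 10) and scaled with TMM in edgeR 4.0.16 (R 4.3.3). The 12 columns were summed per group. Log2 ratios have exact Clopper-Pearson intervals at 95%; for the difference between fractions 0.5 counts were added and a normal interval used. The rule was tested on simulated data. Alternatives were DESeq2 1.42.0, edgeR's quasi-likelihood test with Benjamini-Hochberg adjustment at 0.05 with and without a replicate block, DESeq2's size factors, upper-quartile factors, total counts, no filter, a 2-fold rule and leaving out each column.

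The members, lists and tests were chosen with earlier results of these data known. Members named with values in every column were those called in any comparison, the 3 highest and 3 lowest in the IP (at least 100 counts in the lower group) and in input (at least 20), and a list chosen by role. A few others are given by totals, and Eif3k, Eif4a3, Eif1ax and Eif2s3y were added after their values were seen.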

Additional observations from a re-analysis of the deposited data

How the results depend on the processing

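Of 2478 alternative values for the named members, 2306 stayed within the reported counting interval, 171 moved outside it and 1 called value changed sign: the log2 ratio of IP to input of Eif1 with the control virus was 0.15 with total counts. Tests that treat the 12 columns as replicates and ask for any difference, not 1.5-fold, called more members. In the IP, edgeR's quasi-likelihood test called 4 (Eif1b and Eif4e2 higher, Eif3a and Eif4g2 lower), 4 with a replicate block and DESeq2 3, against 0 by the 1.5-fold rule. In input the counts were 3, 3 with the replicate block and 3 (Eif1, Eif3i and Eif5a lower by edgeR), 2 with total counts, and 0 to 1 leaving out a column: without control input column 3, Eif2b3, with 0, 1 and 3 control counts and 6, 5 and 5 with shLarp1, was called higher. For the difference between fractions they were 4, 4 with the replicate block, 2 with DESeq2 and 3 with total counts (Eif2b2, Eif3i and Eif5a). For IP over input with the control virus, 11 calls became 6 with upper-quartile factors, 33 with total counts, 3 with a 2-fold rule, 29 with edgeR, 28 with the replicate block and 27 with DESeq2, and 8 to 12 leaving out a column. With shLarp1, 12 became 5, 43, 3, 28, 28 and 23 in the same order, 7 with the control IP as TMM reference (chosen after seeing the data), and 6 to 12 leaving out a column, with 6 without shLarp1 input column 1 or 2. Upper-quartile factors gave 3 higher and 3 lower (Eif1, Eif3i and Eif3k) with the control virus and 3 and 2 with shLarp1, and total counts 33 and 43 higher with 0 lower. The median of all genes for IP over input shifted by -0.49 and -0.50 with upper-quartile factors and by 0.98 and 1.34 with total counts. In input it shifted by 0.21 with DESeq2's size factors, 0.14 with upper-quartile factors and -0.23 with total counts, and Eif5a then had log2 ratios of -0.41, -0.48 and -0.86. The counts of members within 1.5-fold were 32 to 40 in the IP and 3 to 5 in input leaving out a column. The median of the 46 changed sign in the input and between-fraction comparisons leaving out some input columns; over all columns left out in turn it was -0.26 to 0.14 and -0.09 to 0.28. Columns with the same number did not deviate together (correlations -0.06 to 0.04), so they share only a number. Depth limits the input most, where 25 of 46 members had under 20 control counts. The order of members by level per coding length was not run, since no length table was used here.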
